A study of Mus musculus with 6 samples.

Results

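The annexin genes *Anxa1*, *Anxa2*, *Anxa3*, *Anxa4*, *Anxa5*, *Anxa6*, *Anxa7* and *Anxa11* were followed in bone-marrow-derived macrophages (BMDMs) exposed to excess sodium chloride. They were taken by gene symbol from the deposited annotation, and all 8 were found among the 15903 genes with a total of at least 10 reads, so no member was lost to the filter on low counts. BMDMs are macrophages that grow out of cultured marrow when M-CSF, their growth factor, is supplied. The marrow came from 3 Cx3cr1GFP mice on a C57BL/6J background, in which GFP sits in the *Cx3cr1* locus of control and treated cells alike, and the ages of the mice are not given in the sources used here. Cells of each mouse were left unstimulated (control, n = 3) or kept for 24 h in medium with 62 mM of extra NaCl (NaCl, n = 3), and only the cells that still adhered were sequenced. The labels put the same 3 mice in both groups, so each NaCl library has a control library of its own mouse, and no library with an osmolarity control was analysed here.

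Annexins are cytosolic proteins that bind phospholipid membranes when calcium rises. They share a core of repeated domains that holds the calcium sites, and each carries its own amino-terminal tail, through which several of them bind small EF-hand proteins of the S100 and ALG-2 type. In phagocytes they are known for membrane repair, for traffic of endosomes and phagosomes, for holding plasminogen at the cell surface (annexin A2) and for dampening inflammation through formyl peptide receptors (annexin A1), while annexin A5 is the protein used as a probe for phosphatidylserine on dying cells.

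The 6 libraries held between 4088065 (NaCl replicate 3) and 20123570 (control replicate 3) reads counted on genes. The 8 annexins together took between 0.477% and 0.512% of the reads of a library, and the member with the fewest reads in any library, *Anxa11* in NaCl replicate 3, had 436. Expression is given as CPM, the reads of a gene relative to those of its library, on library sizes scaled by edgeR's TMM factors. All 8 macrophage markers examined were detected, and their summed level lay between 14923 and 16344 CPM in control and between 23681 and 31334 CPM in NaCl, of which *Lyz2* made up the larger part. The markers did not move one way, since 4 of the 8 had a log2 fold change above 0 and 4 below, with a median of 0.01. In edgeR's test 2 were called higher, *Cd14* (log2 fold change 1.16, adjusted p = 0.00699) and *Lyz2* (0.96, adjusted p = 0.0424). None was called lower, where 0.478% of all genes were called higher and 0.176% lower. With the mouse as replicate block 3 were called higher (*Cd14*, *Lyz2* and *Csf1r*) and 1 lower, where 4.6% and 4.3% of all genes were. The 1 called lower was *Mertk*, an efferocytosis receptor, at 0.51 times its control level (adjusted p = 0.12 in edgeR's test, 4.28e-06 with the block). Of the markers of other cells, 3 of 8 stromal and 2 of 5 B cell genes reached 10 reads in all, and *Lum* and *Pax5* had 0. The 3 stromal genes summed to between 0.906 and 4.34 CPM in control and between 0.447 and 3.59 CPM in NaCl. The 2 B cell genes summed to between 5.25 and 9.66 CPM in control and between 2.90 and 10.4 CPM in NaCl. Most of this was *Cd79b*, with a mean of 63.3 reads per library. The 7 dendritic cell markers summed to between 4.09 and 4.80 CPM in control and between 2.81 and 3.69 CPM in NaCl. These sums rest on few reads, with a mean per library from 3 for *Cd209a* to 17.5 for *Ccr7*. Of the 7, 2 had a log2 fold change above 0 and 5 below. None was called in edgeR's test with or without the block, where 8.9% and 0.654% of all genes were. The 12 neutrophil markers were all detected and are taken up beside *Anxa3*.

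The genes differ in how cleanly reads can be assigned to them. In the GENCODE M21 transcripts, none of the 75-base windows of *Anxa1*, *Anxa5*, *Anxa6* and *Anxa7* occurred in another gene, and for *Anxa2*, *Anxa3* and *Anxa4* the share was 0.681%, 1.12% and 0.085%. For *Anxa11* it was 14.9%, shared with *Gm2260*, *Gm2274* and the opposite-strand gene *Anxa11os*, and reads from these windows cannot be assigned to *Anxa11* alone. The longest coding sequence of the members ranged from 319 codons for *Anxa4* and *Anxa5* to 673 codons for *Anxa6*, the annexin known for a duplicated core, and that of *Anxa7* and *Anxa11*, which have long tails, was 485 and 503 codons.

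*Anxa3* was lower in NaCl, at 0.70 times its control level, and this was the only member that passed a test after adjustment, in some of the fits run. *Anxa1* and *Anxa2*, which are among the most abundant members, were at 1.07 and 1.01 times their control levels. In edgeR's quasi-likelihood test of NaCl against control, 0 of the 8 members passed an adjusted p of 0.05, where 0.654% of all genes tested did (0.478% higher and 0.176% lower), and 2 members (*Anxa3* and *Anxa11*) had an unadjusted p under 0.05, as did 12.6% of all genes. Taking the mouse as a replicate block, which compares each NaCl library with the control of its own mouse, 1 of the 8 passed, *Anxa3*, which fell. That fit called 8.9% of all genes in either direction and 4.3% as lower, so 1 of 8 is a share near the background. DESeq2 without the block also called *Anxa3* alone of the 8. It called 3.12% of the 12817 genes to which it gave an adjusted p, and 1.21% as lower. The median log2 fold change of the 8 members was -0.07, beside -0.01 over all genes, and the members ranged from -0.52 for *Anxa3* to 0.27 for *Anxa5*. In the family the CPM of the 2 groups did not overlap for 4 members, *Anxa3*, *Anxa4*, *Anxa7* and *Anxa11*, all lower in NaCl, where 10.1% of all genes were lower without overlap and 19% did not overlap in either direction. These 4 were lower in NaCl in 3 of 3 mice, as were 23.6% of all genes, and *Anxa5* was higher in 3 of 3 mice, as were 20.1%.

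**Figure D1:**
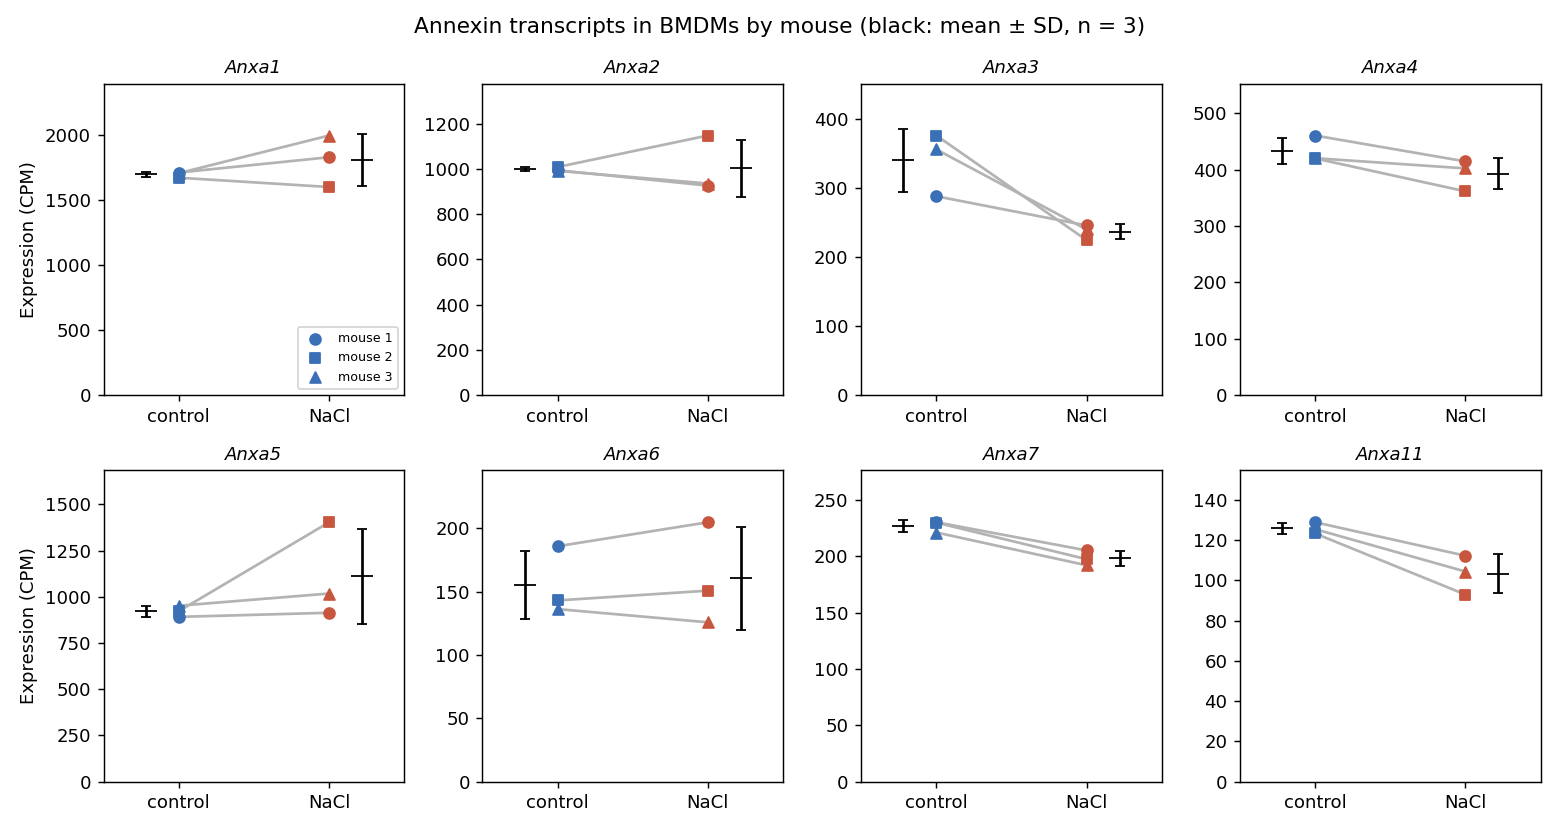
Expression (CPM, linear axis from 0) of the 8 annexin genes in control and NaCl-treated BMDMs, with a line joining the libraries of each mouse and black bars for the mean ± SD of 3 libraries. The NaCl points of *Anxa3* lie between 224 and 245 CPM, below the control points from 288 to 376 CPM, while the points of *Anxa1*, *Anxa2*, *Anxa5* and *Anxa6* overlap between the groups.

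*Anxa3* encodes annexin A3, which is abundant in granules of neutrophils and is also made by macrophages. It lies on chromosome 5 (ENSMUSG00000029484.13). It measured 288, 376 and 355 CPM in control cells of mice 1, 2 and 3, and 245, 224 and 240 CPM in NaCl-treated cells of the same mice. The groups did not overlap, the control libraries were more spread than the NaCl libraries, and mouse 1 had the lowest control and the highest NaCl value. The mean was 340 ± 46.1 CPM in control and 236 ± 11.02 CPM in NaCl (SD, n = 3 each), and the log2 fold change was -0.52 (standard error, SE, 0.14, 95% interval -0.83 to -0.22, adjusted p = 0.146 in edgeR's test). In the blocked fit it was -0.52 (SE 0.12, 95% interval -0.77 to -0.26, adjusted p = 0.00666), a level 0.70 times that of control. DESeq2 gave an adjusted p of 0.0392 without the block. The log2 ratio of NaCl to control was -0.23, -0.74 and -0.57 for mice 1, 2 and 3, and in each mouse it was the lowest of the 8 members. Whether the response of *Anxa3* differed from that of the other members was not tested.

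Neutrophil markers were measured beside *Anxa3*. The summed level of the 12 markers was 336, 615 and 468 CPM in control and 334, 429 and 340 CPM in NaCl for mice 1, 2 and 3, and 11 of the 12 had a log2 fold change below 0. The fall of the sum was smallest in mouse 1 and largest in mouse 2, as for *Anxa3*, but the single markers were not uniform. In mouse 1, 9 of the 12 were higher in NaCl, while *Anxa3* was lower there, and the lowest of the within-mouse ratios fell in mouse 2 for 7 markers and in mouse 3 for 5. With the replicate block 3 of the 12 were called lower, *Csf3r*, *Ngp* and *Mpo*, where 4.3% of all genes were, and in the fit without it 0 were, while 2 had an unadjusted p under 0.05, as did 12.6% of all genes. The abundant granulocyte transcripts *S100a8* and *S100a9* had log2 fold changes of -0.18 and -0.17, with overlapping groups, and *Ly6g*, which marks mature neutrophils, was at 0.438 and 0.245 CPM on average in control and NaCl. The part of these markers in the lower *Anxa3* level was not tested. In bulk RNA fewer cells of a type and less RNA per cell cannot be told apart.

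*Anxa4*, *Anxa7* and *Anxa11* were lower by smaller amounts and passed no test after adjustment. Annexin A11, whose tail binds the EF-hand protein ALG-2 and calcyclin, is encoded on chromosome 14 (ENSMUSG00000021866.16). *Anxa11* measured 129, 123 and 126 CPM in control and 112, 93.0 and 104 CPM in NaCl for mice 1, 2 and 3. Every NaCl value was below every control value, and the log2 fold change was -0.29 (SE 0.12, 95% interval -0.56 to -0.01, adjusted p = 0.381 in edgeR's test, 0.126 with the replicate block). Annexin A7, or synexin, promotes membrane fusion in the presence of calcium. *Anxa7* (chromosome 14, ENSMUSG00000021814.18) measured 230.0, 229.7 and 221 CPM in control and 205, 197 and 192 CPM in NaCl. It had the most even response of the 8, with within-mouse log2 ratios of -0.17, -0.22 and -0.20, and the log2 fold change was -0.20 (SE 0.11, 95% interval -0.45 to 0.06, adjusted p = 0.526 in edgeR's test, 0.338 with the block). Annexin A4 binds membranes in many cell types, epithelia above all. *Anxa4* (chromosome 6, ENSMUSG00000029994.18) measured 461, 419.9 and 420.3 CPM in control and 415, 362 and 402 CPM in NaCl, and the lowest control value was only slightly above the highest NaCl value. Its log2 fold change was -0.14 (SE 0.12, 95% interval -0.42 to 0.13, adjusted p = 0.679 in edgeR's test, 0.519 with the block).

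The 250 bases before the start of these 3 genes are shown as sequence context, from RefSeq on GRCm38.p6, although none of the 3 passed an adjusted test. The RefSeq table held a start for 6 of the 8 members, not for *Anxa3* and *Anxa6*, and the windows shown are those of the 3 genes that hold no annotated exon, in *Anxa4* and *Anxa7* the one at the outermost start. Capitals mark GC boxes (GGGCGG) and the core of NFAT and NFAT5 sites (TGGAAA), on either strand, and NFAT5 is the known regulator of osmotic response genes.
Anxa4 (chr6:86793585-86793834, minus strand): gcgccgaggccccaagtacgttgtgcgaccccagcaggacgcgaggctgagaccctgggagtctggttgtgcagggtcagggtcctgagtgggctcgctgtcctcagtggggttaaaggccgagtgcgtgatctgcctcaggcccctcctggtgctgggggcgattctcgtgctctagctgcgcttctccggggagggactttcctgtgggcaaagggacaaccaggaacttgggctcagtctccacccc
Anxa7 (chr14:20480134-20480383, minus strand): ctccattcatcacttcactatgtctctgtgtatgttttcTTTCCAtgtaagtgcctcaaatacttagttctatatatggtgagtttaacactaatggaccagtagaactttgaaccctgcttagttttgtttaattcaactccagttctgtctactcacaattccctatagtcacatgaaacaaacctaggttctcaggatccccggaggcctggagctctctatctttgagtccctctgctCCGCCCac
Anxa11 (chr14:25841905-25842154, plus strand): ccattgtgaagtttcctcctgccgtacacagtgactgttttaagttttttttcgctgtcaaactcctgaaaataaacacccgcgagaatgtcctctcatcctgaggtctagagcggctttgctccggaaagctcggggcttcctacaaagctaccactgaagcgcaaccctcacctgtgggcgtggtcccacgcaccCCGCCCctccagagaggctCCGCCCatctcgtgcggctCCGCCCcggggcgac
The *Anxa4* window held none of the motifs searched, *Anxa7* held 1 GC box and 1 TGGAAA, and *Anxa11* held 3 GC boxes and no TGGAAA. Neither a TATA box (TATAAA) nor a CCAAT box was found in the 3 windows. Of all 32851 such windows, 32.7% held a GC box, 18.6% TGGAAA, 33.8% CCAAT and 12.4% TATAAA. The windows held 13, 2 and 17 CG pairs for *Anxa4*, *Anxa7* and *Anxa11*, beside a median of 6 over all windows. No motif of this search was common to the 3 windows. The counts depend on the start chosen. The window at the other start of *Anxa7* (chr14:20479942-20480191), of which 192 bases are annotated exon, held 4 GC boxes, 0 TGGAAA and 16 CG pairs, and that at the other start of *Anxa4* (chr6:86775115-86775364) held none of the motifs and 2 CG pairs. The windows of *Anxa1*, *Anxa2* and *Anxa5* are not shown. That of *Anxa5*, of which 208 bases are annotated exon, held 2 TGGAAA. Those of *Anxa1* and *Anxa2* held 0 TGGAAA and 1 TATAAA each, and that of *Anxa2* also 3 GC boxes. A match describes letters only, and binding was not measured.

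Among the abundant members, *Anxa5* varied most in its response. Annexin A5 forms lattices on membranes that expose phosphatidylserine. *Anxa5* (chromosome 3, ENSMUSG00000027712.14) measured 891, 922 and 952 CPM in control and 914, 1403 and 1018 CPM in NaCl for mice 1, 2 and 3. The groups overlapped, and NaCl replicate 2 stood above all other libraries. The log2 fold change was 0.27 (SE 0.17, 95% interval -0.10 to 0.64, adjusted p = 0.555 in edgeR's test, 0.262 with the block), and without NaCl replicate 2 it was 0.07 (adjusted p = 0.853). NaCl replicate 2 also had the highest level of *Anxa2*, of *S100a6* and of *S100a1* among the 6 libraries.

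*Anxa1* and *Anxa2* showed no detectable difference. Annexin A1 is induced by glucocorticoids and signals through the receptor encoded by *Fpr2*. *Anxa1* (chromosome 19, ENSMUSG00000024659.16) measured 1708, 1668 and 1703 CPM in control and 1826, 1597 and 1993 CPM in NaCl. It was higher in 2 of 3 mice, with a log2 fold change of 0.09 (SE 0.13, adjusted p = 0.826 in edgeR's test), and the 95% interval allowed from 0.87 to 1.31 times the control level. Annexin A2 forms a complex with S100A10 that recruits plasminogen. *Anxa2* (chromosome 9, ENSMUSG00000032231.15) measured 995, 1009 and 993 CPM in control and 927, 1149 and 936 CPM in NaCl. Its log2 fold change was 0.01 (SE 0.13, adjusted p = 0.992 in edgeR's test), and the 95% interval allowed from 0.82 to 1.23 times the control level. For both genes the 3 control libraries lay closer together than the 3 NaCl libraries, with SDs of 21.7 against 199 CPM for *Anxa1* and 9.05 against 126 CPM for *Anxa2*.

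*Anxa6* differed between mice more than between treatments. Annexin A6 links membranes to actin and takes part in cholesterol traffic of late endosomes. *Anxa6* (chromosome 11, ENSMUSG00000018340.14) measured 186, 143 and 136 CPM in control and 205, 151 and 126 CPM in NaCl for mice 1, 2 and 3. Both libraries of mouse 1 were above all 4 libraries of the other mice, and the order of the mice was the same in both groups. The log2 fold change was 0.05 (SE 0.19, 95% interval -0.38 to 0.49, adjusted p = 0.943 in edgeR's test), while in the blocked fit the interval narrowed to between -0.20 and 0.27 (adjusted p = 0.903). Averaged over treatments, the SD between mice was 0.30 on the log2 scale for *Anxa6*, and for the other 7 members it lay between 0.04 (*Anxa7*) and 0.17 (*Anxa5*).

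**Figure D2:**
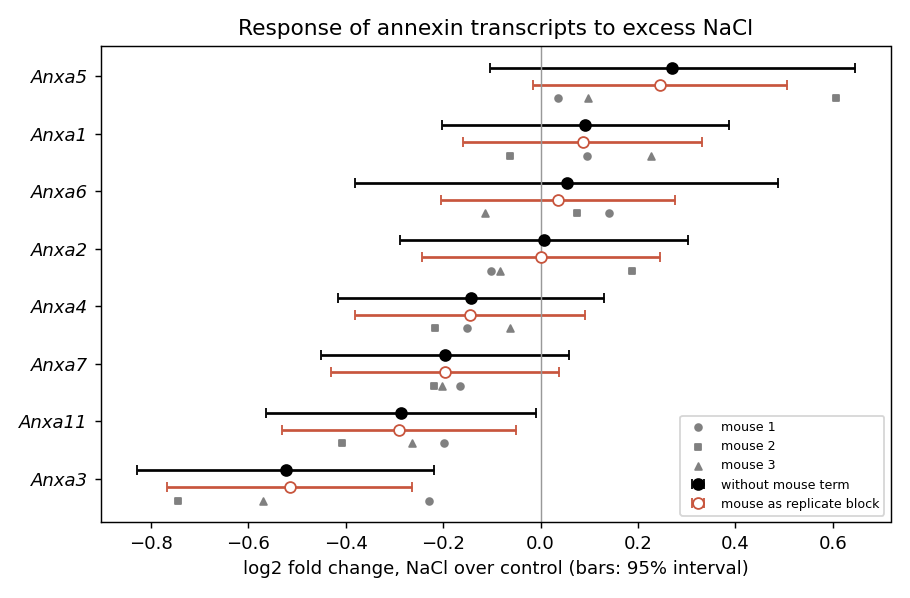
log2 fold change of the 8 annexin genes, NaCl over control, with 95% intervals, from edgeR without a mouse term (black) and blocked by mouse (open red), and the log2 ratio within each mouse (grey). The intervals of *Anxa3* and *Anxa11* lie below 0 in both fits before adjustment for all genes, and *Anxa3* alone passes after it, with the block, at -0.52.

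The levels of the members were compared per kilobase of exon, with all annotated exons of a gene joined. In control cells *Anxa1* came first with 582 ± 7.45 CPM per kilobase, followed by *Anxa5* with 519 ± 17.0 and *Anxa2* with 268 ± 2.43 (SD, n = 3). By this joined length these 3 genes made up 34.7%, 31.0% and 16.0% of the summed level per kilobase of the family. *Anxa4* and *Anxa3* followed with 93.4 ± 5.03 and 93.2 ± 12.6, then *Anxa6* with 52.9 ± 9.17, *Anxa7* with 37.9 ± 0.861 and *Anxa11* with 30.5 ± 0.679 CPM per kilobase. In this order *Anxa4* and *Anxa3* overlapped in control, and the other neighbours did not. In NaCl *Anxa4* (84.6 ± 5.98) and *Anxa3* (64.9 ± 3.02) no longer overlapped, while *Anxa1* (620 ± 68.2) and *Anxa5* (626 ± 145) overlapped, as did *Anxa3* and *Anxa6* (54.7 ± 13.8 CPM per kilobase). The order and the shares rest on the length chosen. Divided by the longest transcript alone, *Anxa3* (213) came before *Anxa4* (165) and *Anxa7* (78.1) before *Anxa6* (62.3) in control, and *Anxa1* (1012) was further above *Anxa5* (533 CPM per kilobase). By that length *Anxa3* (213 ± 28.9) and *Anxa4* (165 ± 8.91) did not overlap in control, while in NaCl they did, at 148 ± 6.91 and 149.7 ± 10.6, and *Anxa3* stayed above *Anxa6* (64.4 ± 16.2 CPM per kilobase).

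**Figure D3:**
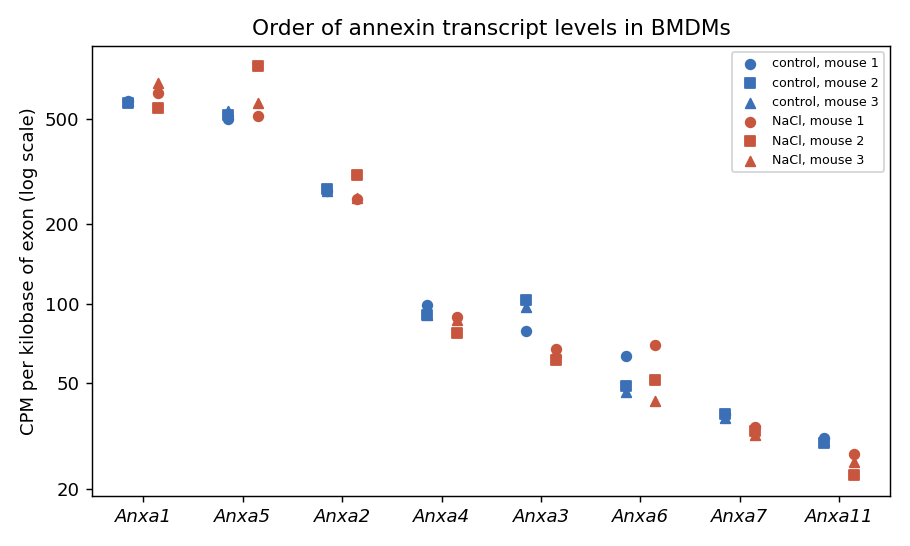
Level of the 8 annexin genes in CPM per kilobase of exon (log axis) in each of the 6 libraries, ordered by the control mean, with blue for control and red for NaCl and a symbol for each mouse. *Anxa1*, *Anxa5* and *Anxa2* lie well above the other 5, and the NaCl points of *Anxa3* lie below its control points, while its place beside *Anxa4* and *Anxa6* depends on the length used.

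Genes whose products work with annexins were taken from a list of 31, of which 29 were tested and *Plat* and *Trim72*, with 6 reads each in all, were not. The transcripts of urokinase and its receptor were lower and that of S100A4 was higher in NaCl. These differences passed with the block and in DESeq2, but not in edgeR's test without the block. The transcripts of the receptors of annexin A1 were scarce. Without the block 0 of the 29 passed in either direction, where 0.654% of all genes did, and 5 had an unadjusted p under 0.05, beside 12.6% of all genes. In the blocked fit 3 rose and 3 fell, where 4.6% of all genes rose and 4.3% fell. DESeq2 without the block called 1 higher (*S100a4*) and 2 lower (*Plau* and *Plaur*). It called 1.91% and 1.21% of the 12817 genes to which it gave an adjusted p. The median log2 fold change of the 29 was -0.04, beside -0.01 over all genes.

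Of the 7 EF-hand partners, 1 rose with the block, where 4.6% of all genes did. *S100a4*, whose protein is tied to cell motility, measured 69.4, 75.5 and 65.3 CPM in control and 119, 99.98 and 100.4 CPM in NaCl for mice 1, 2 and 3. The groups did not overlap, and the log2 fold change was 0.60 (SE 0.13, adjusted p = 0.084 in edgeR's test, 0.00152 with the block, 0.00627 in DESeq2). *S100a10*, which encodes the partner of annexin A2, measured 154, 156 and 175 CPM in control and 195, 200 and 194 CPM in NaCl. It did not overlap between groups but passed no adjusted test (log2 fold change 0.28, SE 0.12, adjusted p = 0.371 in edgeR's test, 0.133 with the block). The ratio of *S100a10* to *Anxa2* in CPM was 0.154, 0.154 and 0.176 in control and 0.210, 0.174 and 0.208 in NaCl, so it was higher in NaCl within each mouse, by 0.44, 0.17 and 0.23 on the log2 scale, and the lowest NaCl ratio was below the highest control ratio. *S100a11*, whose protein binds annexin A1, was at 127 ± 10.4 and 130 ± 2.57 CPM (n = 3 each, log2 fold change 0.04, 95% interval with the block -0.20 to 0.28). *Pdcd6*, which encodes ALG-2, and *Sri*, which encodes sorcin, a partner of annexin A7, had log2 fold changes of -0.01 and -0.09.

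The genes of plasminogen activation gave all 3 falls of the blocked fit, where 4.3% of all genes fell. *Plau*, the gene of urokinase, which cleaves plasminogen, measured 1337, 2675 and 2643 CPM in control and 732, 1329 and 1181 CPM in NaCl. Mouse 1 was lowest in both groups, the groups did not overlap, and the log2 fold change was -1.04 (SE 0.29, adjusted p = 0.165 in edgeR's test, 2.37e-06 with the block, 0.0162 in DESeq2). *Plaur*, the gene of its receptor, measured 121, 172 and 171 CPM in control and 80.1, 91.8 and 109 CPM in NaCl. All NaCl values were below the control values, with a log2 fold change of -0.73 (SE 0.17, adjusted p = 0.117 in edgeR's test, 0.00019 with the block, 0.0157 in DESeq2). *Plgrkt*, which encodes a plasminogen receptor of the cell membrane, averaged 54.8 ± 4.27 CPM without and 41.1 ± 8.60 CPM with excess NaCl, and passed only with the block (log2 fold change -0.42 without and -0.44 with it, adjusted p = 0.351 and 0.0302 in edgeR, 0.359 in DESeq2 without it). *Eno1*, whose enzyme also binds plasminogen at the surface, had a log2 fold change of -0.33 (adjusted p = 0.522 in edgeR's test, 0.111 with the block). All 4 genes tested were lower in 3 of 3 mice, as were 23.6% of all genes.

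Of the 9 scaffold and membrane repair genes tested, 1 rose with the block, where 4.6% of all genes did. *Ahnak*, which encodes a giant scaffold held at the membrane by annexin A2 and S100A10, measured 1816, 1329 and 1300 CPM in control and 2433, 1435 and 2232 CPM in NaCl. The groups overlapped and each mouse was higher in NaCl, with a log2 fold change of 0.46 (SE 0.21, adjusted p = 0.416 in edgeR's test, 0.0308 with the block). *Myof*, the ferlin of this list with the highest level, had a log2 fold change of 0.02 (95% interval with the block -0.22 to 0.26), and the gene of dysferlin, *Dysf*, was near the limit of detection. None of the 6 genes of phosphatidylserine scrambling and flipping passed (0 in both edgeR fits, 0 in DESeq2 and 0 at an unadjusted p under 0.05 without the block), and their log2 fold changes lay between -0.29 and 0.16. *Pla2g4a*, which encodes the cytosolic phospholipase A2 that releases arachidonic acid and that annexin A1 is known to inhibit, measured 31.6, 63.0 and 60.1 CPM in control and 47.7, 74.7 and 104 CPM in NaCl. It was higher in NaCl within each mouse although the groups overlapped, with a log2 fold change of 0.53 (SE 0.30, adjusted p = 0.518 in edgeR's test), while the blocked fit gave 0.54 (SE 0.13, adjusted p = 0.00634). The receptor genes *Fpr1* and *Fpr2* averaged 1.67 ± 0.665 and 1.77 ± 0.272 CPM without and 1.48 ± 0.0559 and 2.04 ± 0.519 CPM with excess NaCl, and a difference was not detectable at this depth.

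**Figure D4:**
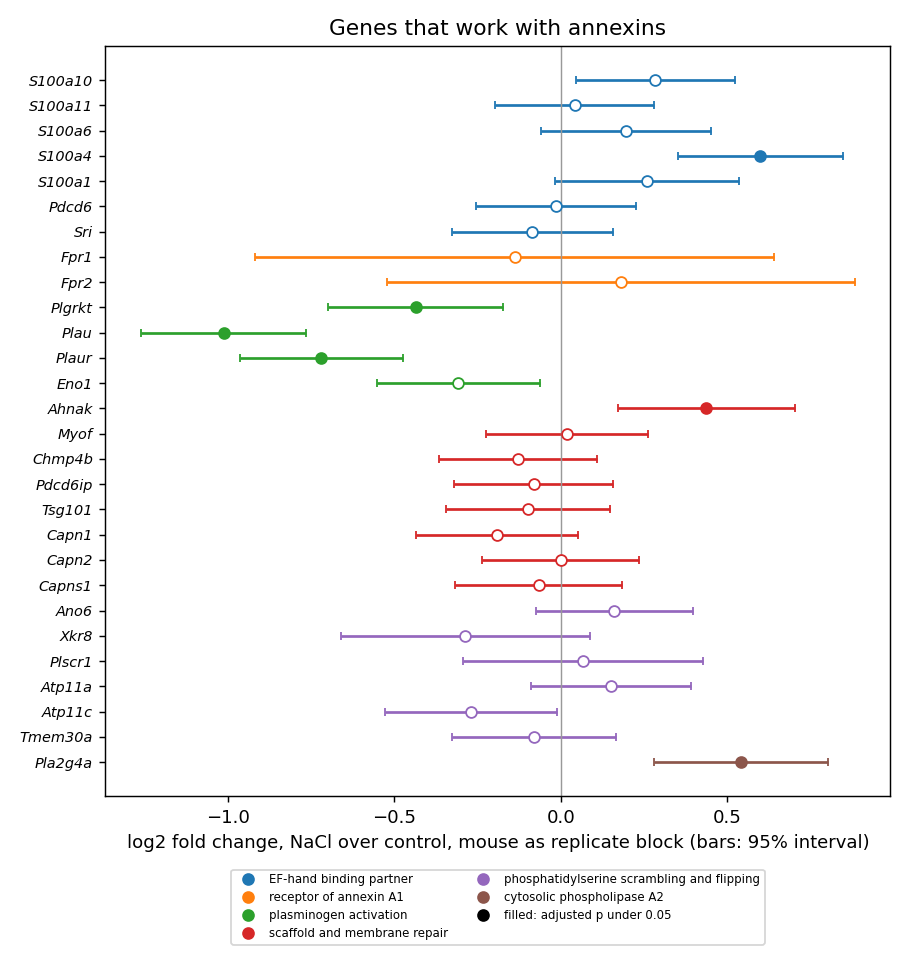
log2 fold change, NaCl over control, with 95% intervals, of 28 of the 29 partner genes tested, from edgeR blocked by mouse, with colours for roles and filled points for an adjusted p under 0.05. *Plau*, *Plaur* and *Plgrkt* are filled on the left and *S100a4*, *Ahnak* and *Pla2g4a* on the right (*Dysf*, with a wide interval, is left out of the plot).

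Among the genes whose log2 CPM over the 6 libraries was most like that of *Anxa3*, the member with the lowest unadjusted p, were *Esyt1* and *Chac1*, with Pearson coefficients of 0.995 and 0.994. They were found among 9923 genes with a mean of at least 50 reads, of which 115 had a coefficient over 0.95. With 6 libraries that share treatment and mice, such values describe these libraries and carry no p-value. The log2 fold change of *Esyt1* was -0.56, close to that of *Anxa3*, while that of *Chac1* was -2.46.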

How the data were processed

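RNA of 6 BMDM libraries was analysed. Per the labels and methods, polyadenylated RNA was made into TruSeq v2 libraries without strand information, read single-end, trimmed with fastp 0.20.0 and aligned with STAR 2.7.10b, and the authors deposited 1 raw count for each gene and library. They also deposited a normalized signal, in which each count is divided by a DESeq2 size factor of its library, and that table gave the gene symbols. Both tables differed by a relative 5e-15 at most after this division, so the raw counts were used. The build is named as mm10 with an annotation that belongs to a later build, so genes are given by chromosome.

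A total of 10 reads over the 6 libraries was required of a gene, and edgeR 4.0.16 was used for testing (TMM, quasi-likelihood, NaCl against control, R 4.3.3), and p-values were adjusted over 15903 genes by the Benjamini-Hochberg method. Log2 CPM used a prior count of 2. Intervals are at 95%. Without the block they rest on the spread between libraries of a group, and with it on the spread that remains once differences between mice are taken out. In both edgeR fits this spread is estimated partly from other genes. An interval or p-value therefore does not measure how evenly a single gene responded over the mice. The within-mouse log2 ratios of *Anxa7* and *Anxa3* had SDs of 0.028 and 0.26, while their SEs in the blocked fit were 0.114 and 0.122. The mouse pairs the libraries by label. Across genes, the departures of the libraries of a mouse from their group averages correlated at 0.426, 0.151 and 0.217, and those of the other pairs lay between -0.35 and 0.124, so a fit that takes the mouse as replicate block stands beside results. Alternatives were DESeq2 1.42.0, limma-voom (limma 3.58.1), other scalings and filters, and leaving out libraries or mice. The scripts were tested on simulated data. Exon lengths and 75-base windows came from GENCODE M21, in which all 8 members were found, and Python 3.11.15 was used. The members, the partner and marker lists and the rule for named genes (members, family genes outside them, *S100a10* and *S100a11*, partner genes past the threshold with or without the block, and the 3 genes most like the member of lowest p) were chosen with earlier results of these data known. 1 of those 3 genes and the erythroid markers are not reported here. Other genes named, such as *Eno1*, *Myof* and *Pdcd6*, were chosen after their values were seen. Library totals ranged from 4088065 to 20123570, and the counting error of the smallest member count was 4.79%.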

Additional observations from a re-analysis of the deposited data

How the results depend on the processing

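With the mouse as a replicate block, a fit that changes calls, 1 annexin was lower past the threshold in place of 0, *Anxa3*. The same count of 1 came from DESeq2, from DESeq2 with the replicate block and from a minimum total count of 1. The fits that left out 1 library gave 0, and the block fits that left out both libraries of 1 mouse gave 1 each, so over these fits it ranged from 0 to 1. The partner genes higher numbered 0, against 3 in either tool under the block, 1 in DESeq2 and 1 with a minimum total count of 1, and from 0 to 3 over the fits leaving out a library or a mouse (block fits gave 0 without mouse 1, 3 without mouse 2 and 1 without mouse 3). The partner genes lower numbered 0, against 3 with the block, 2 in DESeq2 with and without it and 2 with a minimum total count of 1, and from 0 to 3 over the fits leaving out a library or a mouse. No annexin passed as higher (0 in all 17 alternatives). The cause of these differences was not tested.

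The log2 fold change of *Anxa3* stayed between -0.65 and -0.39 over 17 alternatives, with adjusted p-values from 0.00197 to 0.626, and between -0.62 and -0.44 when 1 library was left out. Those of *Anxa1*, *Anxa4*, *Anxa5*, *Anxa7* and *Anxa11* kept their sign in all 17. That of *Anxa2* (0.01) turned to -0.010 with a minimum total count of 1, ranged from -0.094 (without NaCl replicate 2) to 0.065 when 1 library was left out, and was -0.084 in the block fit without mouse 2. That of *Anxa6* (0.05) ranged from -0.16 (without NaCl replicate 1) to 0.21 when 1 library was left out, with -0.022 without control replicate 3, and was -0.0072 in the block fit without mouse 1. The block changed no call of the other 7 members. The level per kilobase by the longest transcript was chosen after seeing the data. With 3 libraries a group, the 95% intervals of the 8 members span between 0.51 and 0.87 on the log2 scale.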

Other observations

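Of the annexin genes outside the 8, *Anxa9* was tested and *Anxa8*, *Anxa10* and *Anxa13* were not, with 1, 0 and 0 reads over all 6 libraries. *Anxa9*, a member that has lost the usual calcium sites, measured 8.64, 8.06 and 8.27 CPM in control and 6.15, 7.89 and 7.43 CPM in NaCl for mice 1, 2 and 3. Its groups did not overlap, and its log2 fold change was -0.22 (standard error 0.19, 95% interval with the block -0.62 to 0.18, adjusted p = 0.692 in edgeR's test). *Anxa11os*, on the strand opposite *Anxa11*, had a mean of 3.83 reads per library, too few to compare.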
